A study of Mus musculus with 12 samples.

Results

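Oligodendrocytes wrap axons of the brain in myelin, a stack of membrane held together by a small set of abundant proteins and enriched in galactolipids made by dedicated enzymes. The lineage factors OLIG1, OLIG2, SOX10, NKX6-2 and MYRF carry precursors to myelin-forming cells and keep the myelin genes on in mature cells. This set held 33 such genes, found in the table of raw counts by the Ensembl identifier that GRCm38 gives to each listed symbol, out of 50563 genes in the table and 15688 genes tested. All 33 were found and all 33 passed the filter on low counts, with no fewer than 40 counts in any mouse. They were sorted into 13 myelin proteins, 4 lipid enzymes, 5 lineage factors, 2 receptors, 4 genes of iron, metabolism and proteolysis, and 5 genes of cytoskeleton and signalling.

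RNA-Seq of brain cortex was performed on 12 E4FAD mice, with 1 library per mouse. All mice carried the genotype APOE4+/+, 5FAD-/+, in which human APOE4 replaces the mouse gene and familial Alzheimer's disease transgenes are expressed from a neuronal promoter. The CTRL group held 7 mice given the vehicle, 2 of them 12 months old (replicates 1 and 7) and 5 of them 14 months old. The vehicle contained the antioxidants alpha-tocopherol and palmitoyl ascorbic acid, which according to the paper all groups received. The DPAn-6 group held 5 mice given docosapentaenoic acid, an omega-6 fatty acid, at 700 mg/kg by daily oral gavage for 3 weeks, 2 of them 12 months old (replicates 3 and 4) and 3 of them 14 months old. Sex was given per group and not per mouse.

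Total counts ran from 15208803 to 26520251 per mouse. The cortex markers Slc17a7, Camk2a, Cux2 and Tle4 were present at 10.76, 12.38, 7.60 and 5.94 log2 CPM on average in CTRL mice. CTRL replicate 3 stood apart from the other libraries: its genes of high GC content were lower than its genes of low GC content (high minus low -1.139 on the log2 scale), where the other 11 libraries ran from -0.273 to 0.419, and results that rest on it are given with and without it. The choroid plexus transcript Ttr, which is no cortical transcript, reached 10.58, 7.38 and 9.88 log2 CPM in CTRL replicates 2, 3 and 5 and lay between 0.87 and 3.88 in DPAn-6 mice. Xist was high in 7 mice (9.15 to 10.57 log2 CPM) and low in 5 (0.46 to 2.07). The 12-month CTRL mice were both Xist-high and the 12-month DPAn-6 mice both Xist-low, so that in the 12-month comparison group and Xist cannot be told apart.

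To ask whether myelin gene expression differed between DPAn-6 and CTRL cortex, each gene was tested with edgeR's quasi-likelihood test and adjusted over all genes tested. Two-sided exact permutation tests compared the mean log2 CPM, the log2 of counts scaled to a common library total (CPM) after adding 0.5 to each count. Enpp6 and Tmem88b rose in DPAn-6 cortex and no member fell, where 1.14% of all genes did. These were 2 of 33 genes with an adjusted p below 0.05, where 1.55% of all genes tested were called and 0.408% were called higher. Another 10 genes, all of them higher in DPAn-6, had an unadjusted edgeR p below 0.05, which made 12 of 33 where 5.51% of all genes were higher at that level and 14.5% were past it in either direction. Of the 33 genes, 30 had a log2 fold change above 0, where 48.7% of all genes did. The median log2 fold change was 0.19 over the set and 0.00 over all genes tested. The calls changed with the fit: 0 of 33 genes were called with age as a covariate (1.17% of all genes), with the replicate number as a block (0.504%) or with neuron markers as a covariate (0%, 7 genes at an unadjusted edgeR p below 0.05, where 1.89% of all genes were higher at that level), 1 was with age and Xist together (0.28% called higher) and 5 were by limma-voom with sample weights (3.21% called higher). The log2 fold change of Enpp6, 0.67 in the reported fit, was 0.69 with age, 0.59 with the block and 1.02 with neuron markers, and that of Tmem88b, 0.45, was 0.43, 0.47 and 0.56. Leaving out any mouse but CTRL replicates 3 and 7 also left 0 called. In bulk cortex, more oligodendrocytes, more RNA per oligodendrocyte and a different make-up of the dissected tissue in DPAn-6 mice cannot be told apart.

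**Figure D1:**
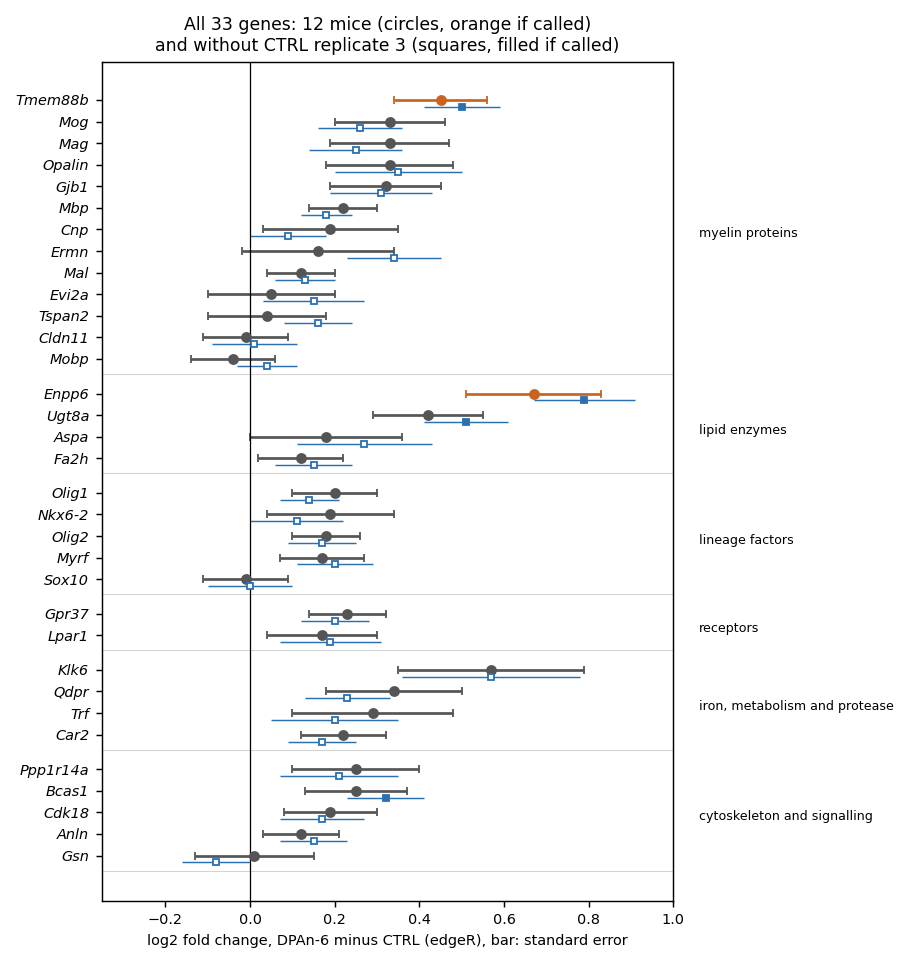
Log2 fold change (DPAn-6 minus CTRL, edgeR) of each of the 33 genes by role, with bars for the SE, in all 12 mice (circles) and without CTRL replicate 3 (squares). Enpp6 (0.67) and Tmem88b (0.45) were called in all mice, and Ugt8a and Bcas1 also without CTRL replicate 3.

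In 31 of the 33 genes the SD of log2 CPM was smaller in the 5 DPAn-6 mice than in the CTRL mice, and the lowest levels were in CTRL mice. The share of all genes with a smaller SD in DPAn-6 was not computed, so the SD cannot be read as a trait of this set. CTRL replicate 3 was the lowest of the 12 mice for 35.1% of all genes and the highest for 26.7%. Averaged over the 33 genes, the 14-month CTRL replicates 2 to 6 had 5.80, 5.83, 5.82, 5.65 and 5.88 log2 CPM. The 12-month CTRL replicates 1 and 7 had 6.21 and 6.06, and DPAn-6 replicates 1 to 5 had 6.17, 6.18, 6.02, 6.17 and 6.23. Hence every 14-month CTRL mouse lay below every DPAn-6 mouse on this average, and both 12-month CTRL mice lay within the DPAn-6 range. CTRL replicate 5 was among the 5 lowest mice for all 33 genes and the lowest for 12, and CTRL replicate 1 was the highest CTRL mouse for 18. Beside the 3 Ttr-rich libraries, CTRL replicates 4 and 6 had 4.59 and 4.06 log2 CPM of Ttr and the 12-month CTRL replicates 1 and 7 had 4.43 and 2.59. With Ttr as a covariate the median log2 fold change of the set was 0.08, where it was 0.19 in the reported fit. The part of Ttr in these levels was not tested beyond that.

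**Figure D2:**
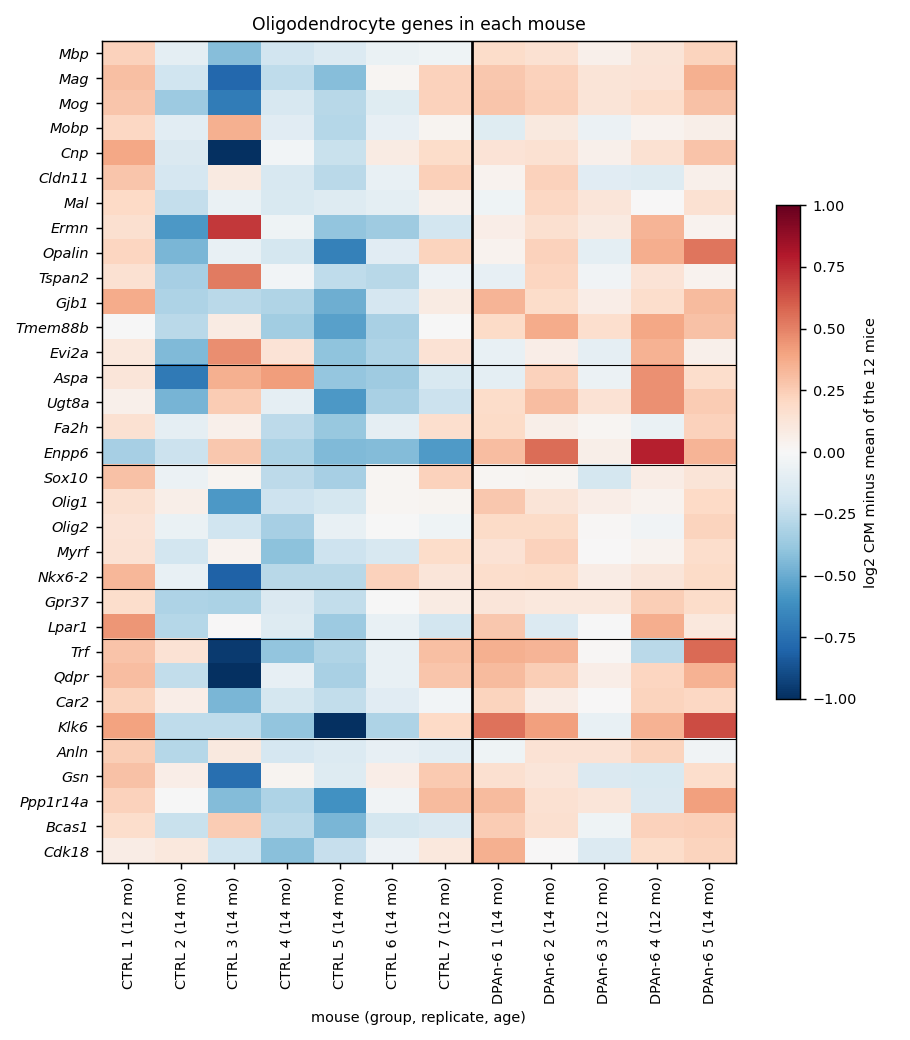
Log2 CPM minus the mean of the 12 mice for the 33 genes (rows) in each mouse (columns, by group, replicate and age), with colour for the deviation, which ends at 1 in either direction. CTRL replicate 5 is among the 5 lowest mice for all 33 genes and CTRL replicate 4 for 30, and CTRL replicate 3 is mixed, lowest for 11 genes and highest for 4.

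Promoters of called and uncalled genes are shown so that they can be read side by side. Enpp6 and Tmem88b were called, and Mobp and Cldn11 had fold changes near 0. The choice was made after the values were seen. Each line holds the 250 bases before the start of the gene from RefSeq (GRCm38.p6), 5′ to 3′ along the strand of the gene. Capitals mark matches, on either strand, to ACAANG (core of SOX factors), CTGGNAC (core of MYRF) or CAGCTG (an E-box form of OLIG factors). Enpp6 lies at chr8:46986637-46986886 on the plus strand, Tmem88b at chr4:155785875-155786124 on the minus strand, Mobp at chr9:120149492-120149741 and Cldn11 at chr3:31149670-31149919, both on the plus strand.
Enpp6: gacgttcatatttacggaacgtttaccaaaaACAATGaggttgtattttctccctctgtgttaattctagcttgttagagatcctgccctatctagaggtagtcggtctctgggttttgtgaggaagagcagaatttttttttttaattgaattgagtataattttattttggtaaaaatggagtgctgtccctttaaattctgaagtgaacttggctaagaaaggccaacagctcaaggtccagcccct
Tmem88b: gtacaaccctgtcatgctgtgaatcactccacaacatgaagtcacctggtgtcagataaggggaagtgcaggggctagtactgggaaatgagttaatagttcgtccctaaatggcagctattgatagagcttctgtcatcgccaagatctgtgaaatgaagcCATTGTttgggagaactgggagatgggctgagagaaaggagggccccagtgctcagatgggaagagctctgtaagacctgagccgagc
Mobp: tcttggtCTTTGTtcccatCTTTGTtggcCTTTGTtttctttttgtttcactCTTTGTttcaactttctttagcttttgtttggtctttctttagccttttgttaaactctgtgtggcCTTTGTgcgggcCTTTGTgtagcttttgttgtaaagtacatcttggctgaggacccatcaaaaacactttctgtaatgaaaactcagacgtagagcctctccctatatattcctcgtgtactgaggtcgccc
Cldn11: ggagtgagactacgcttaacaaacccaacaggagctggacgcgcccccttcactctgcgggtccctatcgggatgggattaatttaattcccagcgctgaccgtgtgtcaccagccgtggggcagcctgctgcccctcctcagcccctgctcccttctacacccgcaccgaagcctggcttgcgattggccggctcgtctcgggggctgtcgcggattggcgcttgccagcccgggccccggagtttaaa
Every match in capitals is to the SOX core, with 1 in Enpp6, 1 in Tmem88b, 6 in Mobp and 0 in Cldn11, and Tmem88b has another after the start of the gene. RefSeq windows from 250 bases before to 50 after the start were matched for 24 of the 33 genes, as 35 windows. The SOX core occurred in 54.3% of these windows and in 41.2% of all 32851, the MYRF core in 37.1% and 19.3%, and the E-box form in 11.4% and 16.3%. These are matches of letters only, and in the 35 windows no match to one motif shared a base with a match to another (0 pairs).

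Myelin proteins build and seal the sheath. Of 13, 11 had a log2 fold change above 0, 1 was called higher and 6 had an unadjusted edgeR p below 0.05, with a median log2 fold change of 0.19. Tmem88b (ENSMUSG00000073680; chromosome 4, 155781591 to 155785874), a transmembrane protein of myelinating cells, had 5.92 log2 CPM in the lowest CTRL mouse, a median of 6.20 and 6.55 in the highest. DPAn-6 replicates 1 to 5 had 6.66, 6.84, 6.63, 6.85 and 6.76. Every DPAn-6 mouse was above every CTRL mouse, which was so for 1.73% of all genes tested and for no other member. The fitted log2 fold change of 0.45 (SE 0.11) passed at an adjusted p of 0.0485 by edgeR, and the exact permutation test gave p = 0.00379. Without CTRL replicate 3 the adjusted p was 0.00335.

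Mbp (ENSMUSG00000041607; chromosome 18, 82475146 to 82585637), the myelin basic protein that compacts the membrane, was the most abundant of the 33 per transcript length, at 346 ± 47.9 FPKM in 7 CTRL mice and 409 ± 17.3 in 5 DPAn-6 mice (mean ± SD). CTRL mice ran from 11.18 through a median of 11.51 to 11.84 log2 CPM. DPAn-6 replicates had 11.79, 11.76, 11.66, 11.74 and 11.83. The CTRL range enclosed all DPAn-6 values at its upper end, and all 5 DPAn-6 mice were above the CTRL mean. A log2 fold change of 0.22 (SE 0.08) was fitted, which edgeR did not call (adjusted p = 0.208; exact permutation p = 0.0215).

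Another 4 myelin proteins had an unadjusted edgeR p below 0.05 and are named after their values were seen. Mag, an adhesion protein of the inner sheath, had a log2 fold change of 0.33, Mog, on the outer surface, 0.33, Gjb1, a gap junction connexin, 0.32, and Opalin, an oligodendrocyte membrane glycoprotein, 0.33. The adjusted edgeR p of these 4 lay between 0.249 and 0.335. Mobp had a log2 fold change of -0.04 and Cldn11, the tight junction claudin of the sheath, -0.01, at 138 and 79.0 FPKM in CTRL. Cnp (0.19), Mal (0.12), Ermn (0.16), Tspan2 (0.04) and Evi2a (0.05) were above 0 and were not called. Reads of Evi2a and Evi2, which share 442 exonic bases on the same strand, are left out of both by the counting where they are ambiguous, so that Evi2a is uncertain.

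**Figure D3:**
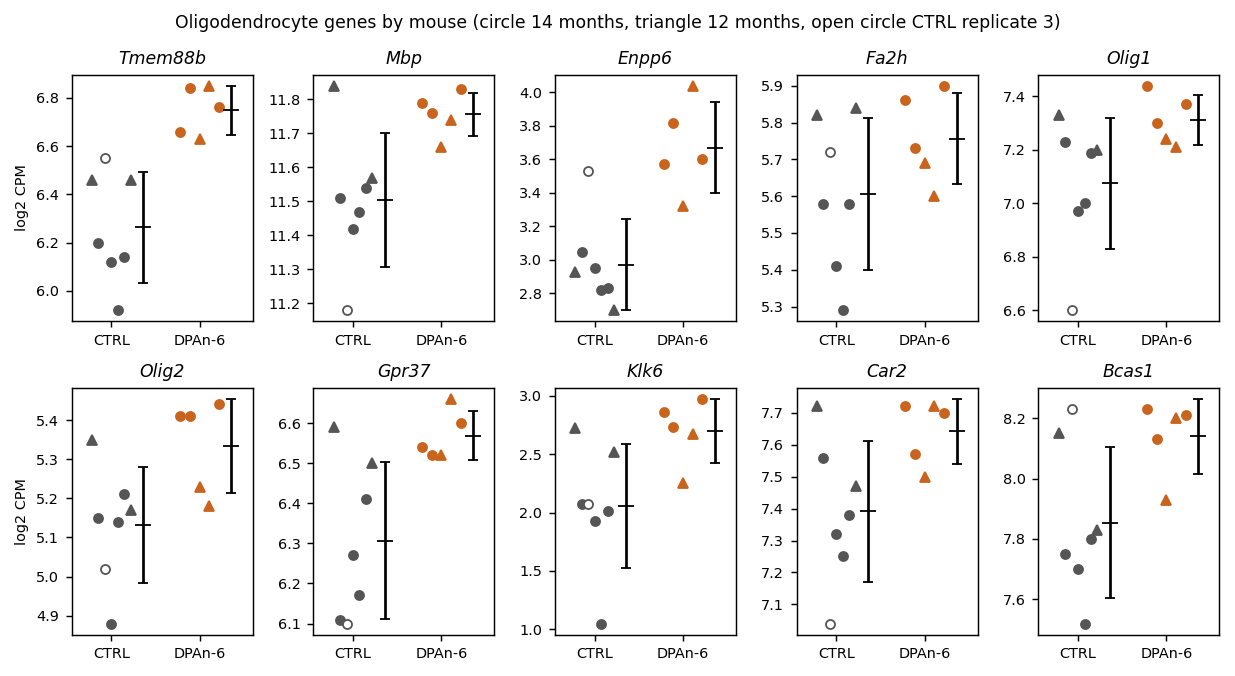
Log2 CPM of 10 genes in each of 7 CTRL and 5 DPAn-6 mice (circles 14 months, triangles 12 months, open circle CTRL replicate 3), with mean and SD beside each group. Tmem88b does not overlap between the groups, and for Mbp the DPAn-6 mice (11.66 to 11.83) lie inside the CTRL range.

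Enzymes of myelin lipids numbered 4, all with a log2 fold change above 0 (median 0.30), of which 1 was called. Enpp6 (ENSMUSG00000038173; chromosome 8, 46986887 to 47096762), a choline-specific phosphodiesterase that is high in newly differentiating oligodendrocytes, was the lowest of the set per length, at 1.24 ± 0.263 FPKM in 7 CTRL mice and 2.01 ± 0.384 in 5 DPAn-6 mice (mean ± SD). CTRL mice had 2.70 log2 CPM at the lowest, 2.93 at the median and 3.53 at the highest. The highest was CTRL replicate 3. DPAn-6 replicates had 3.57, 3.82, 3.32, 4.04 and 3.60, and 4 of the 5 lay above every CTRL mouse. Enpp6 was 1.59-fold higher, a log2 fold change of 0.67 (SE 0.16), which edgeR called at an adjusted p of 0.045 (exact permutation p = 0.00379). Without CTRL replicate 3 it was 0.79 with an adjusted p of 0.00135 by edgeR, and all 5 DPAn-6 mice were then above every CTRL mouse.

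Ugt8a, which makes galactosylceramide and is named after its values were seen, had a log2 fold change of 0.42 (SE 0.13) with an adjusted edgeR p of 0.129. The value without CTRL replicate 3 was 0.51 (adjusted p = 0.00556 by edgeR). Fa2h (ENSMUSG00000033579; chromosome 8, 111345135 to 111393824), the fatty acid 2-hydroxylase of myelin sphingolipids, had the most counts of the 4. Its CTRL values ran from 5.29 (median 5.58) to 5.84 log2 CPM, and DPAn-6 mice had 5.86, 5.73, 5.69, 5.60 and 5.90. The groups overlapped and the log2 fold change was 0.12, SE 0.10, with adjusted p = 0.651 by edgeR and p = 0.183 by exact permutation. Aspa, which frees acetate from N-acetylaspartate, had 0.18.

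Lineage factors were not called. Of 5, Olig2 alone had an unadjusted edgeR p below 0.05, and Sox10 had a log2 fold change of -0.01. Olig2 (ENSMUSG00000039830; chromosome 16, 91225457 to 91228677) had 4.88 to 5.35 log2 CPM in CTRL (median 5.15) and 5.41, 5.41, 5.23, 5.18 and 5.44 in DPAn-6. Its log2 fold change of 0.18 (SE 0.08) was past 0.05 by exact permutation (p = 0.0328) but not after adjustment by edgeR (adjusted p = 0.335). Olig1 (ENSMUSG00000046160; chromosome 16, 91269772 to 91271933), its neighbour on chromosome 16 and the most counted factor, had 6.60 to 7.33 in CTRL (median 7.19) and 7.44, 7.30, 7.24, 7.21 and 7.37 in DPAn-6. For Olig1 the log2 fold change was 0.20 with SE 0.10, and exact permutation gave p = 0.0505. Myrf, the myelin regulatory factor, had 0.17 and Nkx6-2 0.19. If the counting did not use strand, reads of genes on the opposite strand could not be told apart, which concerns Bcas1 (440 exonic bases shared with an antisense gene), Qdpr (332), Nkx6-2 (246), Ermn (237), Olig1 (157), Cnp (154), Tspan2 (88) and Cdk18 (86).

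Both receptors and all 4 genes of iron, metabolism and proteolysis had a log2 fold change above 0, with 0 called and 3 at an unadjusted edgeR p below 0.05. Gpr37 (ENSMUSG00000039904; chromosome 6, 25665878 to 25690729), an orphan receptor that restrains oligodendrocyte differentiation, had 6.10 to 6.59 log2 CPM in CTRL (median 6.27) and 6.54, 6.52, 6.52, 6.66 and 6.60 in DPAn-6. The DPAn-6 mice lay near the top of the CTRL range, 2 of them above it, and the log2 fold change was 0.23, SE 0.09 (adjusted p = 0.221 by edgeR, p = 0.0227 by exact permutation). Lpar1, the lysophosphatidic acid receptor, had 0.17. Car2 (ENSMUSG00000027562; chromosome 3, 14886273 to 14900770), the carbonic anhydrase of oligodendrocytes, had 7.04 to 7.72 in CTRL (median 7.38) and 7.72, 7.57, 7.50, 7.72 and 7.70 in DPAn-6. The 2 highest of these were just above the CTRL range, and edgeR fitted a log2 difference of 0.22 with SE 0.10 (adjusted p = 0.302; p = 0.0391 by exact permutation).

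Klk6 (ENSMUSG00000050063; chromosome 7, 43824499 to 43832030), a secreted protease of oligodendrocytes, rested on 40 to 207 counts per mouse. Its CTRL values were 1.05 to 2.72 log2 CPM (median 2.07) and its DPAn-6 values 2.86, 2.73, 2.25, 2.67 and 2.97. The CTRL spread was wide, with 3 of 5 DPAn-6 mice above every CTRL mouse, and the log2 fold change was 0.57, SE 0.22 (adjusted p = 0.226 by edgeR, p = 0.024 by exact permutation). Qdpr, the dihydropteridine reductase, had 0.34 and Trf, the iron carrier transferrin, 0.29. Trf shares 2108 exonic bases with Gm20425 on the same strand and is uncertain.

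Genes of cytoskeleton and signalling numbered 5, with 0 called and 0 at an unadjusted edgeR p below 0.05 (median 0.19). Bcas1 (ENSMUSG00000013523; chromosome 2, 170346991 to 170427845), which marks early myelinating oligodendrocytes, had 7.52 to 8.23 log2 CPM in CTRL (median 7.80) and 8.23, 8.13, 7.93, 8.20 and 8.21 in DPAn-6. The highest CTRL mouse was CTRL replicate 3. It is among the genes with an antisense partner. In all mice the log2 fold change was 0.25, SE 0.12 (adjusted p = 0.345 by edgeR, p = 0.0455 by exact permutation), and, without CTRL replicate 3, 0.32 with an adjusted edgeR p of 0.0408. Ppp1r14a had 0.25, Cdk18 0.19, Anln 0.12 and Gsn 0.01.

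CTRL replicate 3 moved the values of the set in both directions. It was the lowest of the 12 mice for 11 genes and the highest for 4, where it was so for 35.1% and 26.7% of all genes. Its deviation from the other CTRL mice ran with the GC content of the longest transcript across the 33 genes (Pearson r = -0.647, Spearman rho = -0.634, genes being no independent replicates of a library). Among the 17 genes with the higher GC content 12 were below the other CTRL mice (median -0.37 log2 CPM), and among the 16 with the lower GC content 12 were above (median 0.26). Without this mouse 4 of 33 genes were called higher, Enpp6, Tmem88b, Ugt8a and Bcas1, where 2.12% of all genes were called higher, and the median log2 fold change stayed at 0.19. Every DPAn-6 mouse was then above every CTRL mouse in 3 genes, where this held for 2.75% of all genes.

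**Figure D4:**
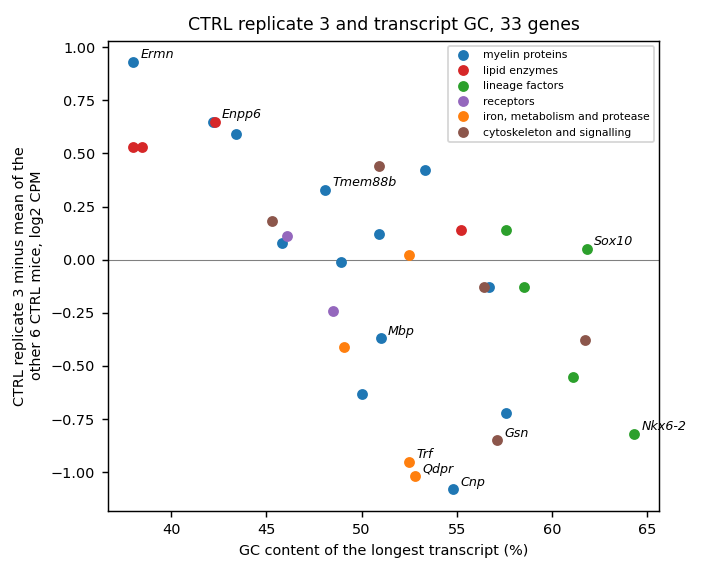
Log2 CPM of CTRL replicate 3 minus the mean of the other 6 CTRL mice against the GC content (percent) of the longest transcript, for the 33 genes coloured by role. Genes of higher GC content were lower in this library (r = -0.647).

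To see whether the difference depended on age, the groups were compared at each age. At 14 months, with 5 CTRL and 3 DPAn-6 mice, all 33 genes had a higher mean log2 CPM in DPAn-6. By edgeR all 33 also had a log2 fold change above 0, where 49.2% of all genes did. The median difference of means was 0.37 log2 CPM (0.34 without CTRL replicate 3), where the median over all genes was 0.04. At 12 months, with 2 mice per group, 10 of 33 genes had a higher mean in DPAn-6, where 51.8% of all genes did. The median difference of means was then -0.07 against 0.01 over all genes. The difference was larger at 14 than at 12 months in 31 of 33 genes, where it was so for 54.9% of all genes. Within CTRL alone, the 12-month mice were above the 14-month mice in 32 of 33 genes (median 0.30 log2 CPM), where 53.8% of all genes were. Leaving out CTRL replicate 3 kept the count at 32, where 51.9% of all genes were. The 3 Ttr-rich libraries and every Xist-low CTRL mouse were 14 months old, while all 14-month DPAn-6 mice were Xist-high and none was Ttr-rich. Age, Ttr and Xist were thus not balanced, and their parts in these counts were not tested. In the interaction of treatment and age by edgeR, 15 of 33 genes had an unadjusted p below 0.05, all larger at 14 months, where 2.47% of all genes did in that direction. None of the 33 was called (smallest adjusted p = 0.869) and 0.00637% of all genes were.

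Klk6, Mag, Gjb1 and Enpp6 are examples chosen after their values were seen, and group and Xist cannot be told apart in their 12-month values. Klk6 had 2.62 and 2.46 log2 CPM in CTRL and DPAn-6 mice at 12 months and 1.83 and 2.85 at 14 months. Its interaction was 1.13 (SE 0.35), not called by edgeR (adjusted p = 0.905). Mag had 7.87 and 7.74 at 12 months and 7.28 and 7.90 at 14 months, and Gjb1 4.32 and 4.21, then 3.79 and 4.38. Enpp6 went the other way in the size of its difference, with 2.81 and 3.68 at 12 months and 3.04 and 3.66 at 14 months (interaction -0.32, SE 0.34). In the 14-month mice only, 21 of 33 genes had an unadjusted edgeR p below 0.05, where 3.6% of all genes were higher at that level, and 0 were called, where 0.0564% of all genes were. With Xist as a covariate beside the interaction, 10 genes had an unadjusted edgeR p below 0.05 in the same direction, where 7.51% of all genes did, and 1 in the other, where 10.2% did. The interaction was above 0 in 23 of 33 genes in that fit and in 29 without Xist, where 7731 and 7727 of 15688 genes were. Among the Xist-high mice (4 CTRL, 3 DPAn-6) 28 of 33 genes were higher in DPAn-6, where 58.3% of all genes were, and among the Xist-low mice (3 CTRL, 2 DPAn-6) 32 of 33, where 52.3% were. Age was not balanced in either comparison. The Xist-low mice were 14-month CTRL and 12-month DPAn-6 mice, so that group and age cannot be told apart among them. Among the Xist-high mice, 2 CTRL and 0 DPAn-6 mice were 12 months old.

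**Figure D5:**
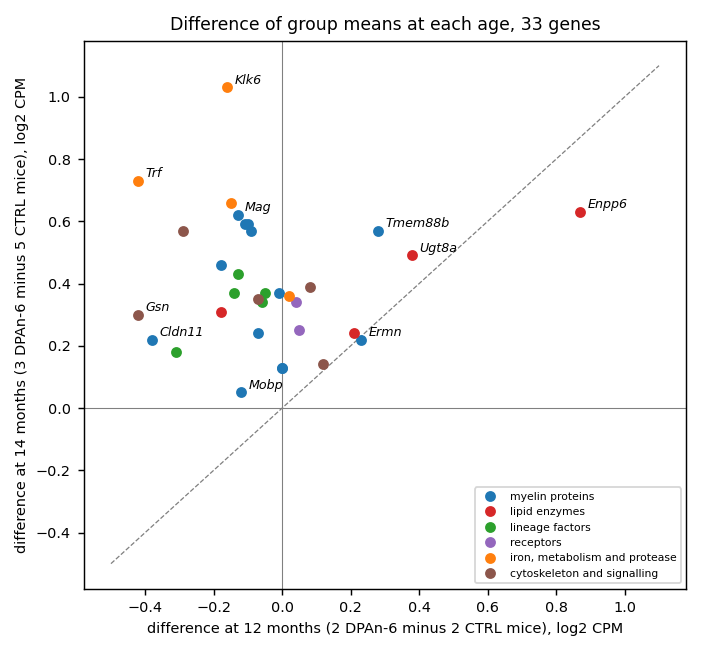
Difference of group means in log2 CPM at 14 months (3 DPAn-6 minus 5 CTRL mice) against that at 12 months (2 minus 2) for the 33 genes coloured by role. All 33 are above 0 at 14 months (median 0.37) and 10 are above 0 at 12 months (median -0.07).

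Genes of the same cells that were not members were read from lists. Of 32 other mature oligodendrocyte genes, 1 was called higher, with 9 higher and 1 lower at an unadjusted edgeR p below 0.05 and a median log2 fold change of 0.15. This was Pllp, the myelin protein plasmolipin, with 0.48 (SE 0.10, adjusted p = 0.0353 by edgeR). Of 17 precursor genes 0 were called by edgeR and 1 had an unadjusted p below 0.05, Pdgfra, the growth factor receptor of precursors, with -0.22 (adjusted p = 0.173 by edgeR), followed by Matn4 at 0.28. Of 13 tested genes of newly forming oligodendrocytes 1 was called and fell, Itpr2, a calcium release channel, by 0.45 on the log2 scale (adjusted p = 0.0240 by edgeR). Of these 13, 4 had a log2 fold change above 0 and 9 below. Medians were -0.01 over the precursor genes, -0.05 over the newly forming genes and -0.08 over the disease-associated genes. None of 12 disease-associated oligodendrocyte genes was called by edgeR, with H2-K1 at -0.39 and Cdkn1a at 0.51, and 1 was higher and 1 lower at an unadjusted p below 0.05.

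Among 15 genes of sphingolipid and galactolipid synthesis or turnover none was called by edgeR and 1 had an unadjusted p below 0.05, Elovl7 at 0.27, while Cers6 had -0.18. Among 19 regulators of myelin genes Lingo1, a membrane protein known to hold back myelination, rose by 0.30 (adjusted p = 0.0466 by edgeR). The median log2 fold change was -0.02 over the 15 lipid genes and 0.0 over the 19 regulators. With the length and GC trend removed, Lingo1 (adjusted p = 0.0913 by edgeR) and Itpr2 (adjusted p = 0.0811 by edgeR) were no longer called. Of the 33 members, 3 were called higher in that fit, where 181 of 15660 genes were. These were Enpp6, Tmem88b and Ugt8a, with adjusted edgeR p of 0.00324, 0.0266 and 0.0132. The Schwann cell genes Pmp2 and Foxd3 had at most 1 and 2 counts in any mouse and were named after their values were seen. None of the 7 of 10 tested Schwann cell genes was called by edgeR, with 2 at an unadjusted p below 0.05, Cdh19 at -0.50 and Pou3f1 at 0.30.

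Marker lists of other cells moved with the groups in part. Microglia genes were lower, with 5 of 12 called, Olfml3, Selplg, Csf1r, Tmem119 and C1qb at -1.19, -0.64, -0.50, -0.77 and -1.02 (summed 1050 to 1560 CPM in CTRL and 739 to 994 in DPAn-6). Without CTRL replicate 3, and also with the length and GC trend removed, 8 of the 12 were called lower. Over all genes, 622 of 15616 were called lower in the first of these fits and 266 of 15660 in the second, where 179 of 15688 were in the reported fit. Choroid plexus genes, of which 8 of 12 were tested, ranged from 15.2 to 1760 summed CPM in CTRL and from 10.6 to 28.5 in DPAn-6, with 0 called and 7 lower at an unadjusted edgeR p below 0.05, led by Ttr (log2 fold change -6.01) and Kcnj13 (-2.82). Without the 3 libraries with most Ttr, Enpp6, Tmem88b and Ugt8a were called (1.1% of all genes called higher), 5 of 33 genes had an unadjusted edgeR p below 0.05, where 7.84% of all genes were higher at that level, and the median log2 fold change was 0.12. With Ttr as a covariate 0 of 33 genes were called (0.108% of all genes), 2 had an unadjusted edgeR p below 0.05 (2.07% of all genes were higher at that level) and the median was 0.08. Enpp6 then had a log2 fold change of 0.77 and Tmem88b of 0.33. No gene was called by edgeR among 12 genes each for astrocytes, neurons, endothelium, striatum, deep and upper cortical layers, with medians of -0.15, 0.11, -0.01, 0.34, 0.17 and 0.04, and unadjusted p below 0.05 in 2, 4, 3, 1, 3 and 4 of them. In the same order, 2, 11, 6, 12, 9 and 6 of the 12 had a log2 fold change above 0, where 48.7% of all genes did. A shift of most genes above 0 was thus not particular to the myelin genes. The 2 of smallest p were Slc1a2 (log2 fold change -0.42) and Slc1a3 (-0.23) for astrocytes, Stmn2 (0.13) and Camk2a (-0.21) for neurons, Vwf (-0.60) and Flt1 (-0.19) for endothelium, Drd1 (0.49) and Tac1 (0.43) for striatum, Syt6 (0.51) and Hs3st4 (0.27) for deep layers, and Lamp5 (0.29) and Rasgrf2 (-0.23) for upper layers. Without CTRL replicate 3, genes called higher numbered 4 among other mature oligodendrocyte genes, 2 among regulators of myelin genes, 1 among disease-associated genes, 1 among neurons and 2 in deep layers, and genes called lower numbered 2 for astrocytes, 1 for endothelium, 3 for choroid plexus and 1 (Itpr2) among newly forming oligodendrocyte genes. In that fit 331 of 15616 genes were called higher and 622 lower. The part of these lists in the result for the myelin genes was not tested beyond these fits.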

How the data were processed

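Cortex RNA of 7 CTRL and 5 DPAn-6 mice was sequenced. The authors selected poly(A) RNA, sequenced the libraries, aligned reads with STAR 2.5.3a to GRCm38 and deposited raw counts per gene, with no normalization; whether the counting used strand is not given in the sources used here. Gene positions, exon lengths and symbols were taken from GENCODE M21, which matched 50339 identifiers. Log2 CPM, with 0.5 added to each count and library totals without TMM factors, and FPKM on exon length were computed here from the deposited counts.

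Groups were compared by the quasi-likelihood test of edgeR 4.0.16 under R 4.3.3, without covariates, after filterByExpr and TMM scaling, with Benjamini-Hochberg adjustment over 15688 genes. The study's methods name limma-voom, which was run as an alternative with limma 3.58.1, as was DESeq2 1.42.0. On simulated counts of 15600 genes, with CTRL against DPAn-6 changes of 1 and 0.5 on the log2 scale, edgeR recovered 88.3% and 46.9%, and 4.74% of its calls were false. The simulated libraries had no GC trend and no differences in age, Xist or Ttr, so these shares need not hold for the calls made here. Each p measures the spread between these mice, 1 library each. Python 3.11.15, numpy 2.4.6, pandas 2.3.3 and scipy 1.17.1 were used.

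The 33 genes and the 15 lists were chosen with earlier results of these data known. Values in every mouse are given for genes called at an adjusted p below 0.05 and for the gene of smallest p and of highest count in each role. In each list, called genes or the 2 of smallest p are named. Some genes of the lists are not reported here. Removing the length and GC trend of every library, age and Xist together, Xist beside the interaction, and the omission of the 3 libraries with most Ttr were added after the data were seen. Library sizes were first taken over all genes, which gave 235 calls; they were changed to the genes tested after that count was seen and differed from an earlier analysis of these data, which gave 243, and the first setting is kept as an alternative.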

Additional observations from a re-analysis of the deposited data

Results flagged for a closer look

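In CTRL replicate 3, the library whose values ran with GC content, 3 genes lay far from the other 6 CTRL mice by a gap test on the ends of each group. Cnp had 7.18 log2 CPM where the others had 7.99 to 8.60, Gsn had 5.38 where they had 6.0 to 6.42, and Enpp6 had 3.53 where they had 2.70 to 3.05. Over the 66 groups looked at, chance alone gives about 3.3 such gaps, as many as were found, but all 3 are in this library. Cnp was low here and Enpp6 high, so that leaving out this mouse lowered the log2 fold change of Cnp from 0.19 to 0.09 and raised that of Enpp6 from 0.67 to 0.79. For Gsn it went from 0.01 to -0.08.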

How the results depend on the processing

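The median log2 fold change of the 33 genes stayed above 0 in each of the 28 alternatives, from 0.08 with Ttr as a covariate to 0.34 in the 14-month mice only. The count of 2 called genes did not hold as well: it was 0 in the 14-month mice only, with Ttr, age or neuron markers as a covariate and with the replicate number as a block, 1 with age and Xist together and 5 by limma-voom with sample weights. Leaving out 1 mouse gave 0 to 4, with 4 when CTRL replicate 3 was left out, 1 for CTRL replicate 7 and 0 for each other mouse. With library sizes over all genes, the setting first run, 2 were called (Enpp6 0.0442, Tmem88b 0.048) and 235 over all genes. Tmem88b kept an adjusted p below 0.05 in 13 of the 28 alternatives (range 0.00144 to 0.816) and Enpp6 in 11 (range 0.000615 to 0.564). The count of genes with an unadjusted p below 0.05, 12, was 21 in the 14-month mice only, 2 with Ttr, 7 with neuron markers as a covariate and 5 without the 3 libraries with most Ttr. Over all genes, 243 calls became 9 in the 14-month mice only, 541 without the 3 Ttr-rich libraries, 696 by DESeq2, 17 with Ttr, 447 with the length and GC trend removed, 1267 with sample weights, 0 with neuron markers and 79 with the block, and 64 to 953 with a mouse left out. With neuron markers 677 genes had an unadjusted p below 0.05.

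Over the single genes 839 of 924 values kept direction and side of the adjusted threshold, 32 lost and 7 gained a call, and 46 changed sign, in 8 genes with small changes. Mobp was 0.01 in the 14-month mice, 0.03 with sample weights and 0.10 with neuron markers. Cldn11 was 0.20, 0.02 without TMM, 0.00 with sample weights, 0.00 by limma-voom, 0.08 with neuron markers, 0.01 without a filter and 0.03 with the block. Sox10 was 0.15 in the 14-month mice, 0.02 without TMM, 0.01 by limma-voom, 0.09 with neuron markers, 0.01 without a filter and 0.06 with the block. With Ttr as a covariate Cnp was -0.02, Tspan2 -0.04, Evi2a -0.14, Aspa -0.05 and Gsn -0.13, and without the 3 Ttr-rich libraries Cnp was -0.02 and Gsn -0.14. Gsn was -0.07 with sample weights, 0.00 with age and Xist and 0.00 with the trend removed. With 1 mouse left out, Mobp ran from -0.08 to 0.04, Cldn11 from -0.06 to 0.04, Sox10 from -0.05 to 0.04, Gsn from -0.08 to 0.06, Evi2a from -0.02 to 0.15 and Tspan2 from -0.01 to 0.16. The cause of these shifts was not tested.

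Same-numbered mice of the groups deviated from their group means with correlations of 0.091, 0.016, -0.125, 0.22 and -0.067. Of the CTRL mice compared, only replicate 4 correlated most with its same-numbered DPAn-6 mouse. Same-numbered mice differed in age for replicates 1, 3 and 4 and in Xist for replicates 3 and 5. The replicate numbers thus did not mark pairs matched on age or Xist. Whether they mark a pairing of another kind cannot be decided from these correlations, and the block is given as an alternative only. With the number as a block Enpp6 and Tmem88b had adjusted edgeR p of 0.235 and 0.173.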
